A study of Homo sapiens with 84 samples.

Results

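The solvent arrays of a lymphoma drug study were examined for the change they show on their own between 4 and 12 h in culture. They are the 24 DMSO arrays among the 84 arrays of the series, chosen by label alone, with 8 arrays at each of 4, 8 and 12 h and 1 array per cell line and time. DMSO (dimethyl sulfoxide) is the solvent in which such inhibitors are dissolved. The 8 lines are established human lymphoma lines. RIVA, TMD8, SUDHL2 and U2932 were elsewhere in the series given 4 inhibitors, and OCILY1, OCILY18, DOHH2 and SUDHL10 were given PQR309 only. PQR309 blocks PI3K and mTOR, per the labels, and its 16 arrays of the same lines at 4 and 12 h served for 1 comparison. The labels give no dose and no count of cultures per array, and no array from before treatment was used here, so p-values measure the spread between lines.

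Cultured cells change their surroundings as they grow, since they use up nutrients and release products into the medium. The heat shock response is 1 sensor of protein folding. Its factor HSF1 is held back by chaperones, and when released it binds inverted repeats of GAA in the promoters of chaperone genes. Sterol synthesis is governed by SREBP factors, which are held in the endoplasmic reticulum by INSIG1 while sterol is plentiful. TSC22D3 (GILZ) is raised by glucocorticoids, and CIRBP, an RNA-binding protein, is raised by mild cold. Such pathways can move in untreated cells, and a drug effect measured against solvent at a later time is measured against cells that have moved.

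Values are the authors' normalized log2 levels. Differences were taken within a line, as 12 h minus 4 h unless another pair of times is named, and ± is limma's moderated standard error over 8 lines. A gene was called when its Benjamini-Hochberg adjusted p over 12440 genes was under 0.05. B-cell genes were at clear levels. CD79A, a signalling chain of the B-cell receptor, ranged over the 24 arrays from 9.47 to 12.7, and its partner CD79B ranged from 9.75 to 13.45. MS4A1 (CD20) ranged from 7.03 to 9.87, and HLA-DRA had a lowest level of 6.65. The PAX5 probe had a median of 6.55, under the level of 6.73 that marks detection. Median levels were above that limit for 1 of 5 T-cell markers, 1 of 5 myeloid markers and 0 of 4 stromal markers, and none of the 7 of these that could be tested was called. In such bulk RNA fewer cells of a type and less RNA per cell cannot be told apart.

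The 4 h arrays of 4 of the 8 lines were set apart, by a rule made after seeing the data. On each, the level exceeded by 0.1% of probes was lower by over 0.2 than on both later DMSO arrays of its line. At 4 h alone the sets nearly met, with RIVA at 13.91 and DOHH2 at 13.94. In RIVA, SUDHL2, OCILY18 and SUDHL10 the level exceeded by 0.1% of probes was 13.75 to 13.91 at 4 h, 14.03 to 14.28 at 8 h and 14.05 to 14.19 at 12 h. In TMD8, U2932, OCILY1 and DOHH2 it was 13.94 to 14.06, 13.99 to 14.15 and 14.00 to 14.10 at those times. EEF1A1, a translation factor among the brightest genes, was at 13.69 to 13.92 in the 4 low arrays and at 14.16 to 14.37 in the other 4 h arrays. With PQR309 the level exceeded by 0.1% of probes was 14.02 to 14.26 at 4 h in the same 4 lines. Across genes, which are not independent replicates, the 8 h minus 4 h profiles of these 4 lines correlated with each other at 0.57 to 0.67, those of the other 4 lines at 0.19 to 0.39, and pairs between the sets at -0.05 to 0.33. The rule picked lines whose 4 h array lay under their 8 h array, so a shared 8 h minus 4 h shift was partly built in. These correlations are therefore no separate support for the split. Values over the 4 other lines (TMD8, U2932, OCILY1 and DOHH2) are given beside many of the results. The median of 7 of the 39 gene lists turned sign over those lines. Their part in each result was not tested beyond this.

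**Figure D1:**
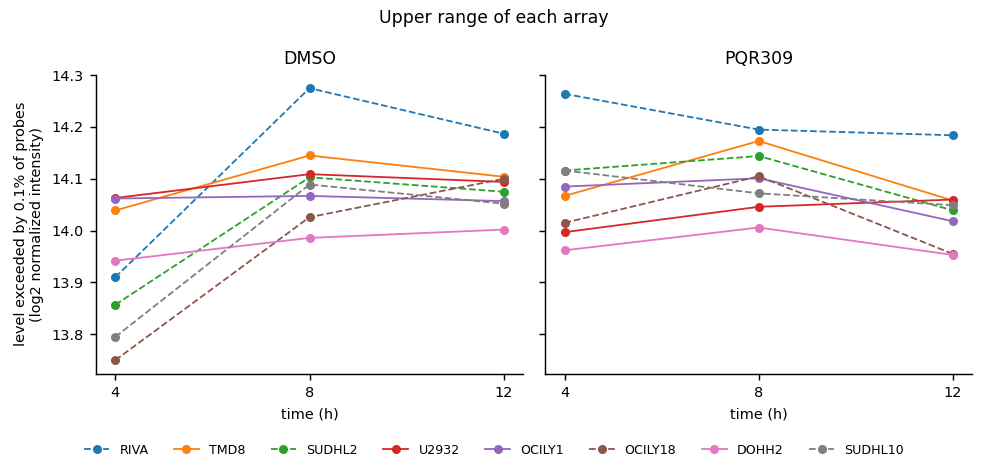
The level exceeded by 0.1% of probes (log2 normalized intensity) on each array against time (h), with DMSO on the left and PQR309 on the right, 1 line per cell line. Dashed lines mark RIVA, SUDHL2, OCILY18 and SUDHL10, whose DMSO arrays at 4 h lie at 13.75 to 13.91, below their later arrays.

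Between 4 and 12 h in DMSO 515 genes rose (4.14% of those tested) and 435 fell (3.5%), 950 in all (7.64%), with 3058 (24.6%) at an unadjusted p under 0.05. The changes were small. The rises had a median of 0.31 and a range of 0.15 to 1.0, and the falls had a median size of 0.28 and reached 1.03. A size of 0.5 or more was reached by 33 rises and 23 falls. Of the 950 genes, 655 moved in their direction in 8 of 8 lines, 275 in 7 and 20 in 6. The median over all genes tested was -0.00. With each array centred on its median gene the split was 474 rises and 504 falls, and for 8 h against 4 h it was 681 rises and 643 falls. In limma on the 4 other lines alone 0 genes were called (1852 at an unadjusted p under 0.05). The means over those 4 lines had the same sign for 515 of 515 rises and 435 of 435 falls, lines that had also entered the calls. Their median was 0.29 for the rises, against 0.33 in the lines with a low array, and -0.27 for the falls, against -0.29. Probes of genes with near-identical copies elsewhere, among them HSPE1, PTMA and the ribosomal protein genes, may read more than 1 gene. Leaving out 1 line gave 339 calls without RIVA, 558 without DOHH2, 559 without U2932, 615 without SUDHL10 and 617 without SUDHL2.

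Chaperones led the rises. HSPA1B, an inducible HSP70 that refolds proteins, had lowest, median and highest levels of 7.50, 8.87 and 9.66 at 4 h, of 8.39, 10.22 and 10.87 at 8 h, and of 8.35, 10.11 and 10.28 at 12 h. Levels of the 3 times overlap, DOHH2 and OCILY18 had the lowest levels throughout, and in every line the 12 h level was above the 4 h level. It rose by 1.0 ± 0.12 (limma, adjusted p = 0.00368), between 0.46 in OCILY1 and 1.79 in TMD8, and its mean over the 4 other lines was 1.03. The copy HSPA1A, nearly identical to HSPA1B so that probes may not tell them apart, lay near background in most lines, with a median of 6.54 at 12 h and 6.51 at 4 h. Its difference was 0.10 ± 0.07 (adjusted p = 0.392).

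HSPH1 (HSP110), which exchanges the nucleotide of HSP70, had lowest, median and highest levels of 10.61, 11.90 and 12.48 at 12 h, against 9.74, 10.81 and 12.27 at 4 h. It rose by 0.86 ± 0.10 (limma, adjusted p = 0.00368), most in RIVA (1.29) and least in SUDHL2 (0.21), the line with the highest starting level. HSPA8, the constitutive HSP70, rose by 0.73 ± 0.11 (adjusted p = 0.00615), by 1.43 in RIVA and 0.22 in OCILY18. DNAJB1, an HSP40 that hands clients to HSP70, was at 8.41, 8.72 and 9.61 at 12 h, against 8.04, 8.19 and 8.69 at 4 h. It rose by 0.58 ± 0.08, between 0.25 in U2932 and 1.0 in OCILY1. HSPE1, the mitochondrial HSP10, rose by 0.69 ± 0.07 (adjusted p = 0.00314). Its lowest, median and highest line differences of 0.34, 0.78 and 0.94 had the smallest SD of these 5 genes (0.23). Over the 4 other lines the means of HSPH1, HSPA8, DNAJB1 and HSPE1 were 0.84, 0.71, 0.67 and 0.68.

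In all, 7 of 19 heat shock chaperones measured (36.8%) rose and 0 fell, against 4.14% and 3.5% of all genes, with a list median of 0.23. DNAJA1 (0.48 ± 0.08) and DNAJB6 (0.28 ± 0.06), further HSP40 genes, complete the 7 and were named after their values were seen. Line medians of the list ran from 0.10 in SUDHL2 to 0.54 in DOHH2 and were above 0 in 8 of 8 lines, where the line medians of all genes ran from -0.01 to 0.01. The list median was 0.36 over the 4 other lines and 0.06 over the lines with a low array. Not every chaperone was called. The cytosolic HSP90 genes, also picked after their values were seen, were at 0.31 ± 0.11 for HSP90AA1 (adjusted p = 0.105) and 0.23 ± 0.10 for HSP90AB1 (adjusted p = 0.185), each above 0 in 6 of 8 lines. DNAJB6 was not called without RIVA (adjusted p = 0.0658) or without SUDHL2 (adjusted p = 0.0562).

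Promoter sequence from RefSeq (GRCh38.p14) was searched on both strands over the 250 bases before each gene's start, and 9884 of 12440 genes could be matched. A gene with several listed starts was counted where any of them had a match. Paired heat shock units, written GAANNTTC or TTCNNGAA, were present before 13 of 18 chaperone genes (72.2%), against 12.6% of all genes matched, but before 1 of 10 HSP90 partners (10.0%). Of the chaperones and partners that rose 6 of 11 (54.5%) had them, namely DNAJA1, DNAJB1, DNAJB6, HSPA1B, HSPA8 and the partner CHORDC1. These 11 genes come from both lists, so their share cannot be set against that of the chaperone list alone. HSPH1 and HSPE1 had none in this window. GAANNTTC alone was before 11 of the 18, against 6.05% of all genes, and TTCNNGAA alone before 8, against 7.58%. The 3-unit form GAANNTTCNNGAA, which holds both, was before 6 of 18 (33.3%), against 0.476% of all genes. A match is a description of letters and not a bound site. Stretches before 3 chaperone genes that rose and hold the units are shown because they carry the units in different layouts, with capitals for the matched letters.
HSPA1B: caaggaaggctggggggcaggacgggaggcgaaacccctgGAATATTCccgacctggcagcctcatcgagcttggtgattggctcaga
HSPA8: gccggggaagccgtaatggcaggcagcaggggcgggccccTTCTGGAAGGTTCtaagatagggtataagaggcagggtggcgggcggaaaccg
DNAJB1: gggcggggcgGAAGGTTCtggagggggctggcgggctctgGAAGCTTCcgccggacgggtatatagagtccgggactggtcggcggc
They lie at chr6:31827593-31827680 on the plus strand, chr11:123062139-123062231 on the minus strand and chr19:14518398-14518484 on the minus strand. HSPA1B has 1 pair of units, HSPA8 has 3 units in a row read from the opposite strand, and DNAJB1 has separate pairs.

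HSP90 works with co-chaperones, and 5 of 11 HSP90 partners measured (45.5%) rose while 0 fell, against 4.14% and 3.5% of all genes. The list median of 0.33 was 0.15 over the 4 other lines, against 0.39 in the lines with a low array. STIP1, which joins HSP70 to HSP90, had lowest, median and highest levels of 10.01, 10.40 and 11.23 at 12 h, against 8.93, 9.63 and 10.68 at 4 h. SUDHL2 was highest at both times, and the ranges overlap, though every line was higher at 12 h. STIP1 rose by 0.72 ± 0.11 (limma, adjusted p = 0.0069), a 1.65-fold change, with a mean of 0.60 over the 4 other lines. The immunophilin FKBP4 rose by 0.57 ± 0.14 (adjusted p = 0.0323) with SUDHL2 the exception at -0.17. CACYBP, a calcyclin-binding partner, rose by 0.59 ± 0.14 but by only 0.25 over the 4 other lines, with OCILY1 at -0.15. CHORDC1 and SUGT1, further co-chaperones, rose by 0.46 ± 0.09 and 0.33 ± 0.07. A heat shock unit pair was before 1 of 10 partner genes, CHORDC1. FKBP4 lost its call without any 1 of RIVA, U2932, OCILY1, OCILY18 and DOHH2 (adjusted p of 0.0551 to 0.0914), and CACYBP without any 1 of RIVA, SUDHL2, U2932, OCILY18, DOHH2 and SUDHL10 (0.0559 to 0.0913). The line medians of the list ran from -0.00 in OCILY1 to 0.64 in OCILY18.

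The folding machines for newly made proteins gave fewer calls. Among 14 CCT chaperonin and prefoldin genes 2 (14.3%) rose and 1 (7.14%) fell, against 4.14% and 3.5% of all genes, with a list median of 0.09. CCT3, a subunit of the ring that folds actin and tubulin, rose by 0.56 ± 0.09 (limma, adjusted p = 0.00684), and PFDN6 by 0.37 ± 0.06. PFDN4 fell by 0.15 ± 0.04, at levels near 7, and was not called when any line was left out (adjusted p of 0.0534 to 0.116).

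**Figure D2:**
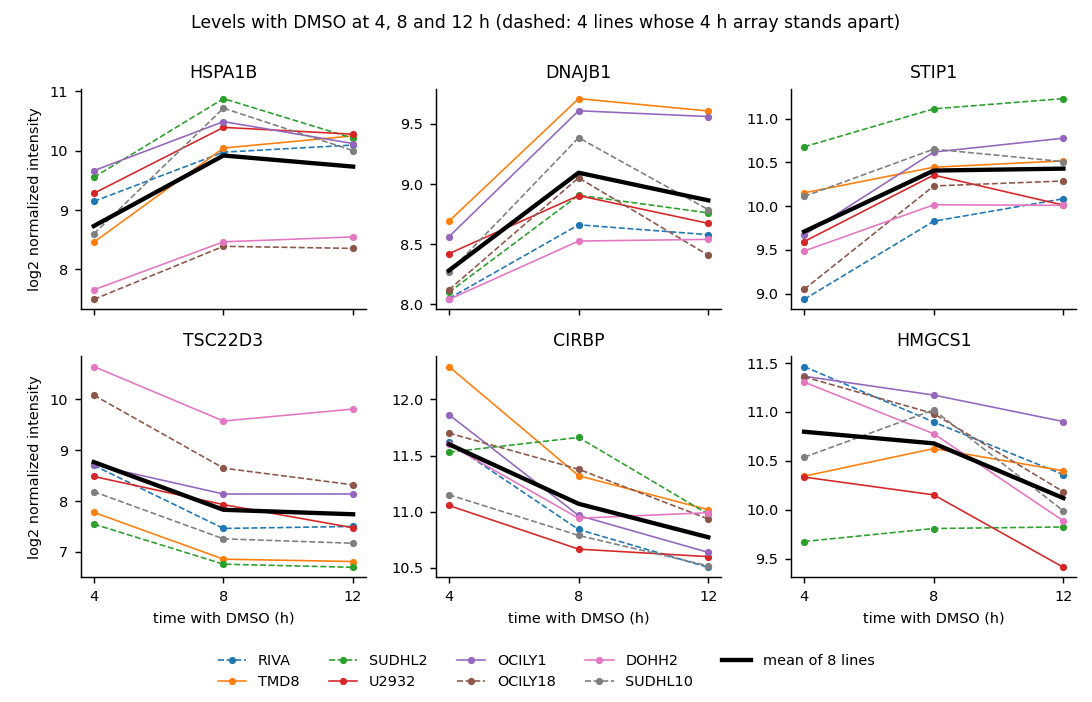
Levels (log2 normalized intensity) of 6 genes in DMSO against time (h), 1 thin line per cell line (dashed where the 4 h array stands apart) and a black line for the mean of 8 lines. HSPA1B, DNAJB1 and STIP1 rise mostly by 8 h, TSC22D3 falls mostly by 8 h, and CIRBP and HMGCS1 have lower means at 12 h than at 8 h.

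Of 27 proteasome genes, which make the machine that degrades ubiquitin-marked proteins, 8 (29.6%) rose and 0 fell, against 4.14% and 3.5% of all genes, with a list median of 0.20 and line medians of 0.03 to 0.33, above 0 in 8 of 8 lines. PSMD1, the large scaffold of the regulatory cap, had lowest, median and highest levels of 9.20, 9.77 and 10.05 at 12 h, against 8.55, 9.15 and 9.82 at 4 h. It rose by 0.51 ± 0.07 (limma, adjusted p = 0.00505) in 8 of 8 lines, with 0.46 over the 4 other lines. PSMD4, a ubiquitin receptor of that cap, rose by 0.48 ± 0.09, and the core subunits PSMB2 and PSMB1 rose by 0.47 ± 0.07 and 0.34 ± 0.06. Each of these 3 rose in 8 of 8 lines, and none of the 4 lost its call when any line was left out.

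In the mitochondrial respiratory chain 4 of 36 genes (11.1%) rose and 0 fell, against 4.14% and 3.5% of all genes, with a list median of 0.10 that was above 0 in 8 of 8 lines. NDUFV1, a complex I subunit that takes electrons from NADH, rose by 0.51 ± 0.07 (limma, adjusted p = 0.00559). UQCRC1 of complex III rose by 0.39 ± 0.07, ATP5MC1 of the ATP synthase by 0.44 ± 0.10 and COX4I1 of complex IV by 0.31 ± 0.07. COX4I1 is bright, at a median of 12.26 at 12 h and 12.03 at 4 h, and was at 0.18 over the 4 other lines. ATP5MC1 lost its call without RIVA (adjusted p = 0.0657) or DOHH2 (adjusted p = 0.0564), and COX4I1 without any 1 of 5 lines (0.0541 to 0.068).

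Among nucleotide, polyamine and mitochondrial import genes 3 of 29 (10.3%) rose and 1 (3.45%) fell, against 4.14% and 3.5% of all genes, with a list median of 0.03. CAD, which starts pyrimidine synthesis, rose by 0.50 ± 0.07 (limma, adjusted p = 0.00559), and the purine synthesis enzymes ATIC and GART rose by 0.36 ± 0.08 and 0.35 ± 0.09. RRM2, a subunit of ribonucleotide reductase, fell by 0.47 ± 0.11, and by 0.23 over the 4 other lines. ATIC lost its call without RIVA (adjusted p = 0.0591), RRM2 without RIVA, SUDHL2 or SUDHL10 (0.0625 to 0.0697), and GART without any 1 of 7 lines (0.0531 to 0.094). Of 7 pentose phosphate genes none was called (0 up and 0 down), though their median of 0.16 was above 0 in 8 of 8 lines, from 0.05 in SUDHL2 to 0.42 in DOHH2.

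The remaining leading rises came from no single pathway listed here. They were NTHL1, a DNA repair glycosylase (0.67 ± 0.07), LBHD1 (0.65 ± 0.09), PTGES2, a prostaglandin synthase (0.64 ± 0.10), and SF3B3, a splicing factor subunit (0.63 ± 0.08). TUBG1, the gamma-tubulin that nucleates microtubules (0.61 ± 0.11), and PLOD1, a collagen lysyl hydroxylase (0.58 ± 0.09), followed. Each of these rose in 8 of 8 lines. ISG15, an interferon-induced ubiquitin-like protein, rose by 0.61 ± 0.13 with TMD8 far ahead at 1.55. DDIT4, an inhibitor of mTOR that stress raises, rose by 0.60 ± 0.15, between 0.12 in OCILY1 and 1.65 in RIVA. ISG15 lost its call without RIVA, SUDHL2 or SUDHL10 (adjusted p in limma of 0.0526 to 0.0681), and DDIT4 without any 1 of 6 lines (0.0591 to 0.092).

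**Figure D3:**
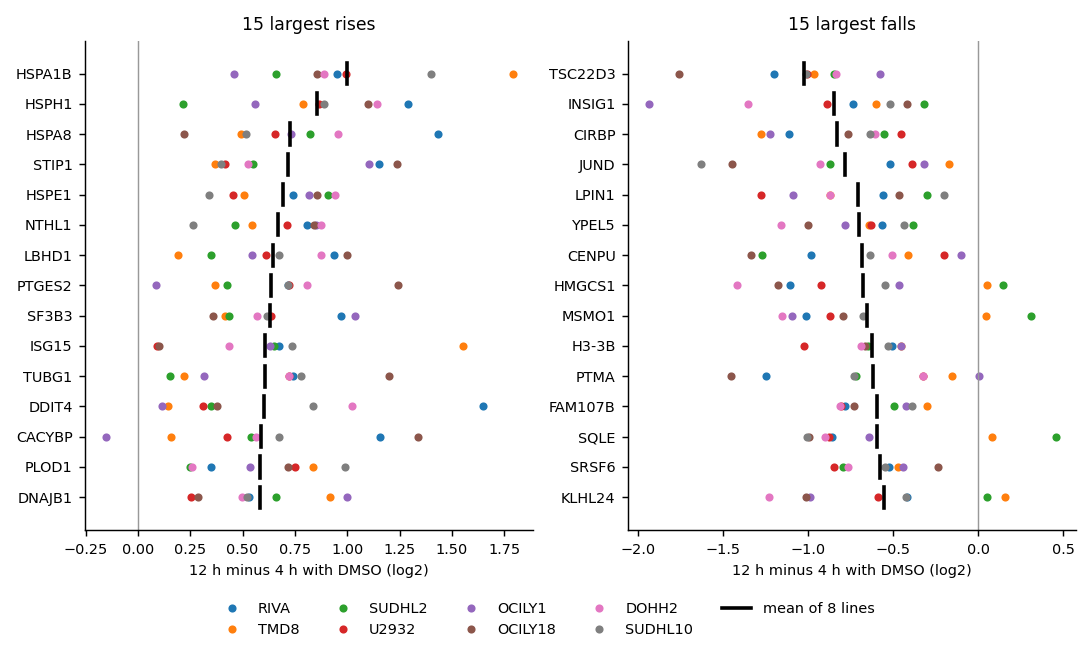
The 15 largest rises (left) and 15 largest falls (right) among called genes, as 12 h minus 4 h with DMSO (log2), with 1 point per line and a black bar for the mean of 8 lines. HSPA1B leads the rises at 1.0 and TSC22D3 the falls at -1.03, and some falls, such as HMGCS1, MSMO1, SQLE and KLHL24, have 2 lines above 0.

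The largest fall was in TSC22D3. Its lowest, median and highest levels were 7.55, 8.59 and 10.64 at 4 h, 6.76, 7.70 and 9.57 at 8 h, and 6.70, 7.49 and 9.81 at 12 h. DOHH2 and OCILY18, the lines lowest in HSPA1B, were the highest here at all 3 times. TSC22D3 fell by 1.03 ± 0.10 (limma, adjusted p = 0.00314) to 0.491 times its level, in 8 of 8 lines, and by 0.85 over the 4 other lines. It was the 1 fall among 14 glucocorticoid-response genes, a list with 1 rise (7.14% each way, against 4.14% up and 3.5% down of all genes) and a median of -0.09.

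CIRBP had lowest, median and highest levels of 10.50, 10.79 and 11.02 at 12 h, against 11.05, 11.61 and 12.29 at 4 h, so the highest 12 h level lay under the lowest 4 h level. It fell by 0.83 ± 0.10 (limma, adjusted p = 0.00368), most in TMD8 (-1.28) and OCILY1 (-1.23) and least in U2932 (-0.46), and by 0.89 over the 4 other lines. SRSF6, a splicing factor rich in serine and arginine, fell by 0.58 ± 0.07 (adjusted p = 0.00368) in 8 of 8 lines. CLK3, a kinase that phosphorylates such splicing factors, rose by 0.48 ± 0.08. Those are the 3 calls among 10 cold-response and splicing genes measured. Of these 10 genes 1 rose and 2 fell, where 4.14% of all genes rose and 3.5% fell. The list had a median of -0.09, and of -0.18 over the 4 other lines. Its line medians were below 0 in 8 of 8 lines, at -0.40 in OCILY1 and between -0.11 and -0.005 elsewhere.

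Other leading falls were transcription and chromatin genes. JUND, a subunit of the AP-1 factor, was at 10.44, 11.51 and 11.97 at 12 h, against 10.76, 12.28 and 12.89 at 4 h. It fell by 0.79 ± 0.16 (limma, adjusted p = 0.0174), by 1.63 in SUDHL10 and 1.45 in OCILY18 and by 0.45 over the 4 other lines. H3-3B, which encodes the replacement histone H3.3, fell by 0.62 ± 0.06 (adjusted p = 0.00314), with line differences between -1.03 and -0.45, and by 0.66 over the 4 other lines. CENPU, a centromere protein, fell by 0.68 ± 0.14 but by 0.30 over the 4 other lines. PTMA, prothymosin alpha, fell by 0.62 ± 0.15 but by 0.20 over the 4 other lines, with OCILY1 at 0.01. CENPU lost its call without RIVA (adjusted p = 0.0563), and PTMA without any 1 of RIVA, SUDHL2, U2932, OCILY18, DOHH2 and SUDHL10 (0.0559 to 0.0939).

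Further falls were those of YPEL5, a yippee-like protein (0.70 ± 0.08 down), LPIN1, a phosphatidate phosphatase of lipid synthesis (0.70 ± 0.11 down), and FAM107B (0.59 ± 0.07 down), each in 8 of 8 lines. KLHL24, a ubiquitin ligase adaptor, fell by 0.56 ± 0.15 with SUDHL2 and TMD8 above 0. YPEL5 had a fold of 0.615 (limma, adjusted p = 0.00368), and its mean over the 4 other lines was -0.80. LPIN1 was at -1.03 over those lines, and KLHL24 lost its call without any 1 of RIVA, U2932, OCILY1, OCILY18, DOHH2 and SUDHL10 (adjusted p of 0.076 to 0.094).

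Among 20 sterol synthesis and uptake genes 5 (25.0%) fell and 1 (5.0%) rose, against 3.5% and 4.14% of all genes, with a list median of -0.18. INSIG1, which retains the SREBP complex, had lowest, median and highest levels of 9.32, 10.31 and 11.21 at 12 h, against 9.64, 11.24 and 12.05 at 4 h. It fell by 0.85 ± 0.16 (limma, adjusted p = 0.0141) in 8 of 8 lines, with -1.94 in OCILY1 and -0.32 in SUDHL2, and by 1.20 over the 4 other lines. The enzymes did not follow in every line. HMGCS1, which makes HMG-CoA, fell by 0.68 ± 0.17 (adjusted p = 0.036) but was at 0.15 in SUDHL2 and 0.06 in TMD8. MSMO1, a methylsterol oxidase, fell by 0.66 ± 0.16, and SQLE, the squalene epoxidase, fell by 0.59 ± 0.16. Both were above 0 in the same pair of lines, where INSIG1 fell. CYP51A1, the lanosterol demethylase, fell by 0.53 ± 0.10 in 8 of 8 lines, while TM7SF2, a sterol reductase, rose by 0.31 ± 0.07.

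The line medians of the sterol list ran from -0.53 in DOHH2 to 0.22 in SUDHL2, with 3 lines above 0. HMGCS1 lost its call without any 1 of RIVA, U2932, OCILY18, DOHH2 and SUDHL10 (adjusted p in limma of 0.0626 to 0.0985), and MSMO1 and SQLE without any 1 of those or OCILY1 (0.0591 to 0.0939 for MSMO1, 0.0744 to 0.122 for SQLE). CYP51A1 lost it without RIVA (0.0508), and TM7SF2 without RIVA (0.0563) or SUDHL10 (0.0511). Over the 4 other lines HMGCS1, MSMO1, SQLE and CYP51A1 were at -0.69, -0.77, -0.58 and -0.60.

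A CCAAT box, the site of the factor NF-Y that often stands beside sterol elements, was before 15 of 18 sterol genes (83.3%), against 41.8% of all genes and 7 of 18 chaperones. The sterol element as written TCACNCCAC was before 1 of 18, SREBF2, against 1.22% of all genes. No heat shock unit pair was before any of the 18 in this window. Stretches before 3 genes that fell are shown for the strand and place of the box, in capitals as CCAAT or, on the opposite strand, ATTGG.
HMGCS1: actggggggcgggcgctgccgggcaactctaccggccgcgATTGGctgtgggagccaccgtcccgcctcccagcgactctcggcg
INSIG1: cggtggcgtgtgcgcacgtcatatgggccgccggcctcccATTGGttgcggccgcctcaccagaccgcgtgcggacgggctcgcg
MSMO1: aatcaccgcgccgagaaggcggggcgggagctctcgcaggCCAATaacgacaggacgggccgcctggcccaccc
They lie, in GRCh38.p14, at chr5:43313468-43313552 on the minus strand, chr7:155297668-155297752 on the plus strand and chr4:165327595-165327668 on the plus strand. A match in such a window is again only a description.

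Fatty acid genes were divided, with 2 rises and 2 falls among 14 (14.3% each, against 4.14% and 3.5% of all genes) and a median of 0.01. ACACA, which makes malonyl-CoA, rose by 0.34 ± 0.05 (limma, adjusted p = 0.00466) in 8 of 8 lines, and ACLY, which supplies acetyl-CoA, rose by 0.31 ± 0.05 in 7. ELOVL5, a fatty acid elongase, fell by 0.27 ± 0.07, and LPIN1 was the other fall. ELOVL5 lost its call without any 1 of 7 lines (adjusted p of 0.0548 to 0.108).

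The list of ATF4 targets gave 1 rise (3.57%) and 3 falls (10.7%) among 28, against 4.14% and 3.5% of all genes. Its median was -0.19, with line medians from -0.61 in DOHH2 to 0.08 in RIVA. ATF4 itself, the transcription factor, was at 11.09, 11.91 and 12.52 at 12 h, against 11.26, 12.45 and 12.76 at 4 h. It fell by 0.40 ± 0.07 (limma, adjusted p = 0.0118) in 8 of 8 lines. The amino acid transporters SLC38A2 and SLC7A1 fell by 0.47 ± 0.11 and 0.36 ± 0.07, and DDIT4 was the rise. SLC38A2 lost its call without any 1 of RIVA, SUDHL2, U2932, DOHH2 and SUDHL10 (adjusted p of 0.0576 to 0.0763). Of the stress pathways beside it, the unfolded protein response had 1 rise among 17, SDF2L1, an endoplasmic reticulum chaperone partner (0.44 ± 0.12, and 0.16 over the 4 other lines). EDEM1, which hands misfolded glycoproteins to degradation, was its 1 fall (0.30 ± 0.08 down). Its shares of 5.88% up and 5.88% down are near those of all genes, and its median of 0.10 turned to -0.06 over the 4 other lines. Both of these lost their calls without any 1 of 7 lines (0.0516 to 0.105 for SDF2L1, 0.0592 to 0.1 for EDEM1). The hypoxia list had 1 rise among 18, HILPDA, a lipid droplet protein (0.42 ± 0.11), and 1 fall, BNIP3L, a mitophagy receptor (0.55 ± 0.11 down), shares of 5.56% each that are also near those of all genes. HILPDA lost its call without any 1 of 6 lines (0.0518 to 0.113), and BNIP3L without RIVA (0.0563).

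Glycolysis gave 0 calls of 18 and a median of -0.02. In the cell cycle lists 3 of 37 G1/S genes (8.11%) fell, against 3.5% of all genes, and 0 rose. The G1/S median of -0.02 turned to 0.07 over the 4 other lines, against -0.19 in the lines with a low array. PCNA, the sliding clamp of replication, was at 10.28, 10.85 and 11.44 at 12 h, against 10.96, 11.49 and 11.82 at 4 h. It fell by 0.54 ± 0.10 (limma, adjusted p = 0.0113) in 8 of 8 lines, by 1.20 in SUDHL2 and by 0.37 over the 4 other lines. TIPIN, a fork protection factor, fell by 0.30 ± 0.06 (0.18 over the 4 other lines), and GINS3, a helicase subunit, by 0.23 ± 0.06 (0.16). Of 43 G2 and mitosis genes 3 (6.98%) fell and 0 rose, with a median of 0.02 that turned to -0.07 over the 4 other lines, against 0.05 in the lines with a low array. They were CKAP2, a spindle protein (0.38 ± 0.10 down), and the motors KIF11 (0.29 ± 0.08) and KIF23 (0.36 ± 0.09). TIPIN lost its call without any 1 of 3 lines, GINS3 and KIF11 of 7, and CKAP2 and KIF23 of 5 (adjusted p of 0.0515 to 0.119 over the 5 genes).

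Ribosomal proteins gave 5 rises (10.0%) and 2 falls (4.0%) among 50, against 4.14% and 3.5% of all genes. Their median of 0.05 turned to -0.01 over the 4 other lines, against 0.10 in the lines with a low array, and on arrays that only the raw table holds, of 5 lines, all 5 were under 0, between -0.20 and -0.04. Their median level at 4 h was 13.27, near the upper range by which the low 4 h arrays were set apart. Whether that range plays a part in these changes was not tested. RPLP2, a stalk protein, rose by 0.49 ± 0.10 over 8 lines (limma, adjusted p = 0.0183) but was at 0.22 over the 4 other lines. RPS10 rose by 0.21 ± 0.05, while RPS13 and RPL23 fell by 0.22 ± 0.05 and 0.25 ± 0.06. RPLP2 and RPS13 lost their calls without RIVA (adjusted p = 0.0553 and 0.0563), RPS10 without RIVA, U2932 or SUDHL10 (0.051 to 0.0585), and RPL23 without any 1 of 4 lines (0.0565 to 0.0668). Ribosome biogenesis had 3 rises (8.11%) and 1 fall (2.7%) among 37, with a median of 0.02. NPM3, PPAN and NHP2, nucleolar proteins, rose by 0.38 ± 0.09, 0.27 ± 0.06 and 0.22 ± 0.06, and TAF1D, a factor for ribosomal RNA transcription, fell by 0.34 ± 0.06. Of these 4, TAF1D alone was called whichever line was left out.

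Immune and lineage lists held 2 or 3 calls each, beside 4.14% up and 3.5% down of all genes, and nothing is read from shares of so few members. Of 32 interferon genes 2 rose, ISG15 and BST2 (tetherin, 0.46 ± 0.08), a share of 6.25%, and 0 fell. Of 33 NF-kB targets 2 (6.06%) fell, REL, an NF-kB subunit (0.40 ± 0.08 down in limma, adjusted p = 0.0142), and NFKBIE, an NF-kB inhibitor (0.30 ± 0.08 down). Of 28 B-cell identity genes 2 (7.14%) rose, TCL1A, a coactivator of AKT (0.42 ± 0.09), and IKZF1, a lymphoid transcription factor (0.28 ± 0.08). Of 12 plasma cell genes 2 (16.7%) fell, TNFRSF17, the survival receptor BCMA (0.52 ± 0.11 down), and JCHAIN, which joins IgM and IgA (0.36 ± 0.09 down). In the BCL2 family 3 of 16 genes (18.8%) were called, against 7.64% of all genes. BAX and BAD, which promote cell death, rose by 0.45 ± 0.07 and 0.18 ± 0.05, while PMAIP1 (NOXA), which also promotes it, fell by 0.54 ± 0.11. NFKBIE, TCL1A, IKZF1, TNFRSF17, JCHAIN, BAD and PMAIP1 each lost the call without at least 1 line (adjusted p of 0.0515 to 0.117).

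Other lists held 4 or fewer calls, beside 4.14% up and 3.5% down of all genes. The 36 lysosome and autophagy genes had 1 rise (2.78%), ATP6V0D1, a proton pump subunit (0.34 ± 0.06), and 3 falls (8.33%). These were LAMP2, a membrane glycoprotein (0.28 ± 0.07 down), MAP1LC3B, which marks autophagosomes (0.37 ± 0.09 down), and ATG14, which directs autophagy initiation (0.33 ± 0.06 down). LAMP2 and MAP1LC3B lost their calls without any 1 of 6 lines (adjusted p of 0.0524 to 0.0971). FOXO targets had 2 falls among 28 (7.14%), YPEL5 and KLHL24, and immediate early transcription factors had 2 among 21 (9.52%), JUND and ZFP36L1, an RNA-binding protein (0.35 ± 0.07 down). GCLC, the first enzyme of glutathione synthesis, fell by 0.37 ± 0.06 (limma, adjusted p = 0.00746), and it was the 1 call among 15 oxidative stress genes (6.67%). DBP, a clock output factor, rose by 0.19 ± 0.05, the 1 call of 14 clock genes (7.14%), which was lost without any 1 of 7 lines (0.0592 to 0.0978). No call fell on 11 ERK feedback genes, 14 STAT3 targets, 6 LXR targets or 7 CC chemokines.

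**Figure D4:**
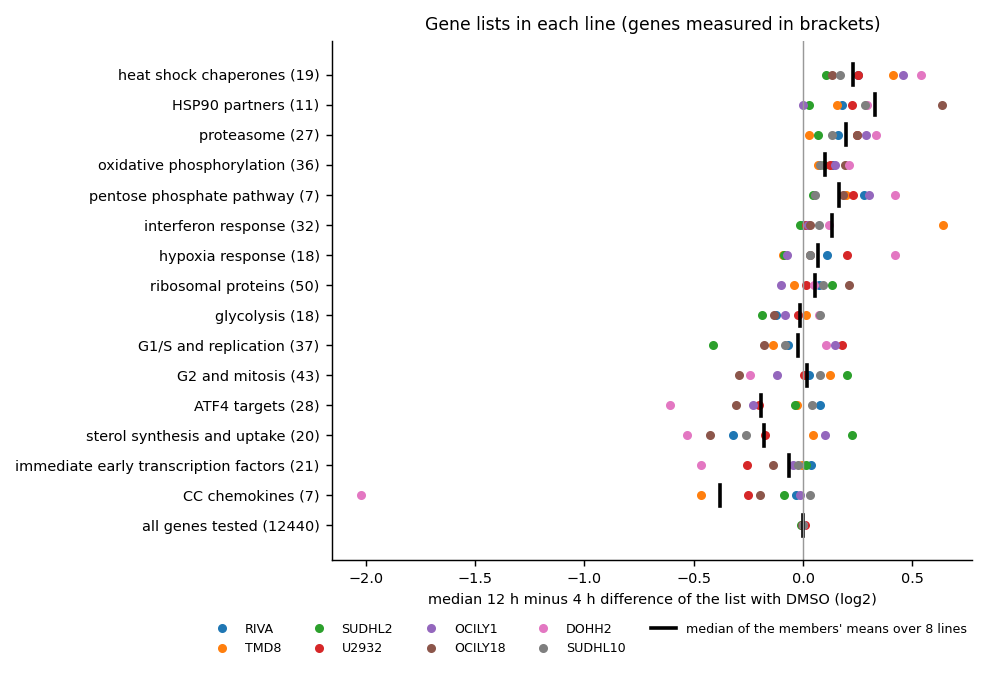
The median 12 h minus 4 h difference (log2) with DMSO of 15 gene lists and of all genes tested, with 1 point per line and a black bar for the median of the members' means over 8 lines. Heat shock chaperones, proteasome, oxidative phosphorylation and pentose phosphate genes lie above 0 in every line, sterol and ATF4 lists spread to both sides, and single lines stand out for CC chemokines (DOHH2, -2.02) and interferon genes (TMD8, 0.64).

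More genes were called from 4 to 8 h than from 8 to 12 h. For 8 h minus 4 h limma called 777 rises (6.25%) and 560 falls (4.5%), 1337 in all (10.7%). For 12 h minus 8 h it called 0 genes (0.0%), with 833 (6.7%) at an unadjusted p under 0.05 and a lowest adjusted p of 0.348. Both steps use the 8 h arrays, and the first uses the 4 low arrays. Over the 4 other lines 8 h minus 4 h gave 21 calls (8 rises and 13 falls), and leaving out 1 line gave 784 calls without RIVA, 679 without SUDHL2, 706 without SUDHL10 and 640 without OCILY18.

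From 4 to 8 h the leaders were HSPA1B (1.19 ± 0.14), HSPH1 (0.88 ± 0.12), DNAJB1 (0.81 ± 0.08), SF3B3 (0.75 ± 0.11), HSPA8 (0.71 ± 0.10) and FASN, the fatty acid synthase (0.73 ± 0.16). The largest falls were TSC22D3 (-0.94 ± 0.09), JUND (-0.79 ± 0.17), PCNA (-0.73 ± 0.08), CENPU (-0.70 ± 0.12), FAM162A, a mitochondrial protein raised by hypoxia (-0.70 ± 0.14), and H4C3, a replication histone (-0.75 ± 0.21). FASN had means of 10.33, 11.06 and 10.77 at 4, 8 and 12 h, and its 12 h minus 4 h difference of 0.44 ± 0.13 did not pass (adjusted p = 0.0653) and was 0.06 over the 4 other lines. H4C3 at 12 h was at -0.30 ± 0.15 against 4 h (adjusted p = 0.266), and its 8 h call was lost without any 1 of 6 lines (adjusted p of 0.051 to 0.111). Over the 4 other lines this step was at 0.24 for FASN, 0.47 for SF3B3, 0.76 for DNAJB1, 0.69 for HSPA8, -0.35 for JUND, -0.23 for H4C3, -0.58 for FAM162A and -0.40 for CENPU, none of them called (limma, adjusted p of 0.0713 to 0.58). HSPA1B (1.08), HSPH1 (0.93), TSC22D3 (-0.78) and PCNA (-0.55) were the 4 of these 12 genes that stayed called.

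A level at 8 h off the straight line between 4 and 12 h was called for 61 genes (0.49%), 37 above it (0.297%) and 24 below (0.193%). HSPA1B lay above it by 0.69 ± 0.10 (limma, adjusted p = 0.0191), DNAJB1 by 0.52 ± 0.07 (0.0148), FASN by 0.51 ± 0.10, HSPH1 by 0.45 ± 0.07, and EIF5, a translation initiation factor, and MYDGF, a secreted growth factor, by 0.37 each. PCNA lay below it by 0.46 ± 0.05 (adjusted p = 0.0104), with means of 11.48, 10.75 and 10.94. TSC22D3 (-0.42), CENPU (-0.36), TARS1, a transfer RNA synthetase (-0.33), the pseudogene RPL21P28 (-0.40) and the ribosomal RNA RNA18SN5 (-0.63) also lay below. The count was 2 without OCILY18, 3 without RIVA, 4 without SUDHL10, 13 without U2932, 20 without SUDHL2, 24 without DOHH2 and 259 without OCILY1. It was 4 over the 4 other lines, where FASN was at 0.21, MYDGF at 0.19, EIF5 at 0.27 and PCNA at -0.36, and of the 12 genes named here only HSPA1B (0.57) stayed called. Of these 12 named genes, PCNA alone was called whichever line was left out.

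For some genes the mean moved on after 8 h, without a call in that step. HMGCS1 had means of 10.80, 10.68 and 10.12, with an 8 h minus 4 h difference of -0.12 ± 0.11 (limma, adjusted p = 0.547) and a 12 h minus 8 h difference of -0.56 (95% interval -0.87 to -0.25, adjusted p = 0.348). CIRBP had means of 11.60, 11.07 and 10.77 and a later step of -0.30 (-0.48 to -0.11). FKBP4 had means of 8.46, 8.82 and 9.03 and a later step of 0.21 (0.01 to 0.41). For HSPA1B the later step was -0.19 (-0.49 to 0.11), and for HSPH1 it was -0.03 (-0.17 to 0.12). These intervals are for 1 gene each and are not adjusted, and those of HSPA1B and HSPH1 include moves of either sign.

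The raw table holds other arrays for the DMSO samples of RIVA, TMD8, SUDHL2, U2932 and DOHH2, so that the measurement could be repeated there (n = 5 lines). Whether the same RNA was used is not stated. No gene was called on these arrays (0.0%; 1786, or 14.4%, at an unadjusted p under 0.05 in limma), with a lowest adjusted p of 0.0911. The mean on these arrays was above 0 for 374 of the 515 rises (72.6%), against 52.4% of all genes, and below 0 for 340 of the 435 falls (78.2%), against 47.6%. All 5 lines were above 0 for 95 of the rises (18.4%), against 7.93% of all genes, and below 0 for 88 of the falls (20.2%), against 5.88%. The median difference there was 0.11 for the rises and -0.13 for the falls, against 0.31 and -0.28 over 8 lines in the normalized table.

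Some named genes had the same sign in each of these lines. HSPA1B was at 1.11, HSPH1 at 0.83, HSPA8 at 0.50, STIP1 at 0.54, FKBP4 at 0.51, CHORDC1 at 0.55 and CAD at 0.52, each above 0 in 5 of 5 lines. TSC22D3 was at -0.86, SRSF6 at -0.73, H3-3B at -0.60, YPEL5 at -0.58, FAM107B at -0.52, CENPU at -0.51, MSMO1 at -0.56 and TNFRSF17 at -0.84, each below 0 in 5 of 5. Heat shock chaperones had a list median of 0.36, and HSP90 partners of 0.19, both above 0 in 5 of 5 lines. Pentose phosphate genes had a median of 0.30, also above 0 in 5 of 5.

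Others lay near 0 or on the other side of it. HSPE1 was at -0.04 and above 0 in 1 of 5 lines, ISG15 at -0.04 in 1 of 5, and TUBG1 at -0.12 and DDIT4 at -0.02 in 2 of 5. PSMB1 was at -0.13 and above 0 in 1 of 5, COX4I1 at -0.32 in 1 of 5 and ATP5MC1 at -0.16 in 0 of 5. RRM2, a fall in the normalized table, was at 0.36 and above 0 in 4 of 5. The list medians of the proteasome (0.07) and oxidative phosphorylation (-0.01) were above 0 in 3 of 5 lines each.

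The lines given every inhibitor and those given PQR309 only did not differ by a call in their DMSO change. Limma called 0 genes (0.0%) for that difference, with 404 (3.25%) at an unadjusted p under 0.05 and a lowest adjusted p of 0.997. That p does not show that the sets changed alike.

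The same 12 h minus 4 h difference was set beside that of PQR309 in the same 8 lines. A different change was called for 1292 genes (10.4%), 686 higher in DMSO (5.51%) and 606 lower in DMSO (4.87%), with 3122 (25.1%) at an unadjusted p under 0.05. Over the 4 other lines 276 were called (162 and 114), and leaving out 1 line gave 839 calls without U2932, 722 without RIVA, 777 without SUDHL2, 836 without SUDHL10 and 748 without OCILY18. The difference has the same sign whether DMSO moved or PQR309 did, so both values are given.

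The leading gene was HSPE1, with 0.69 ± 0.23 with DMSO and -0.42 ± 0.39 with PQR309 (SD, n = 8), a difference of 1.11 ± 0.09 (limma, adjusted p = 0.000294). It was above 0 in 8 of 8 lines with DMSO and in 1 of 8 with PQR309. FABP5, a fatty acid carrier, was at 0.31 ± 0.29 with DMSO, which did not pass on its own (adjusted p = 0.0568), and at -0.63 ± 0.34 with PQR309 (difference 0.94 ± 0.07, adjusted p = 5.72e-05). The proteasome subunits PSMB2 and PSMB1 were at 0.47 and 0.34 with DMSO and at -0.25 and -0.29 with PQR309. MRPL4, a mitochondrial ribosomal protein, was at 0.36 with DMSO and -0.26 with PQR309, and CLUH, which binds messages of mitochondrial proteins, at 0.39 and -0.21.

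In the other direction the pseudogene RPL21P28 was at -0.45 ± 0.21 with DMSO and 0.43 ± 0.30 with PQR309 (SD, n = 8), a difference of -0.88 ± 0.10 (limma, adjusted p = 0.00127). The ribosomal protein gene RPL23 was at -0.25 and 0.36, and TSC22D2, a relative of TSC22D3, at -0.33 and 0.24. For all 3 the 8 DMSO values were below 0 and the 8 PQR309 values above it. AOC4P, a pseudogene, was at -0.38 and 0.10, NAA50, an acetyltransferase, at -0.38 and 0.07, and ZNF398, a zinc finger protein, at -0.28 and 0.10. None of the 12 genes, picked by smallest p in this same test, lost its call when any line was left out. Over the 4 other lines 10 of the 12 stayed called. With raw intensities (7 lines) or without pairing by line none of the 12 was called.

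Some DMSO changes had a like size with PQR309. HSPA1B was at 1.0 with DMSO and 0.98 with PQR309 (difference 0.02 ± 0.17, adjusted p = 0.968), and H3-3B at -0.62 and -0.64 (adjusted p = 0.927). FAM107B was at -0.59 with DMSO and -0.58 with PQR309, CENPU at -0.68 and -0.75, and TSC22D3 at -1.03 and -0.81 (adjusted p = 0.0713). A p above the threshold does not show equal change. YPEL5 differed, with -0.70 with DMSO and 0.02 with PQR309 (difference -0.72 ± 0.11, adjusted p = 0.00262), as did STIP1 with 0.72 and 0.17 (0.54 ± 0.10, adjusted p = 0.00804).

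By list, glycolysis had a median of -0.02 with DMSO and -0.51 with PQR309, and 11 of 18 members were called higher in DMSO and 0 lower, where 5.51% of all genes were called higher and 4.87% lower. G1/S genes had medians of -0.02 and -0.30, with 14 of 37 higher in DMSO and 0 lower. The proteasome had medians of 0.20 and -0.07, with 14 of 27 higher in DMSO and 0 lower. Nucleotide and import genes had 10 of 29 higher and 0 lower, and sterol genes 2 of 20 higher and 6 lower. The median of this difference over all genes was -0.01. For glycolysis and G1/S genes the DMSO medians lay near 0 and the PQR309 medians below it, while for the proteasome the DMSO median was the one farther from 0.

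**Figure D5:**
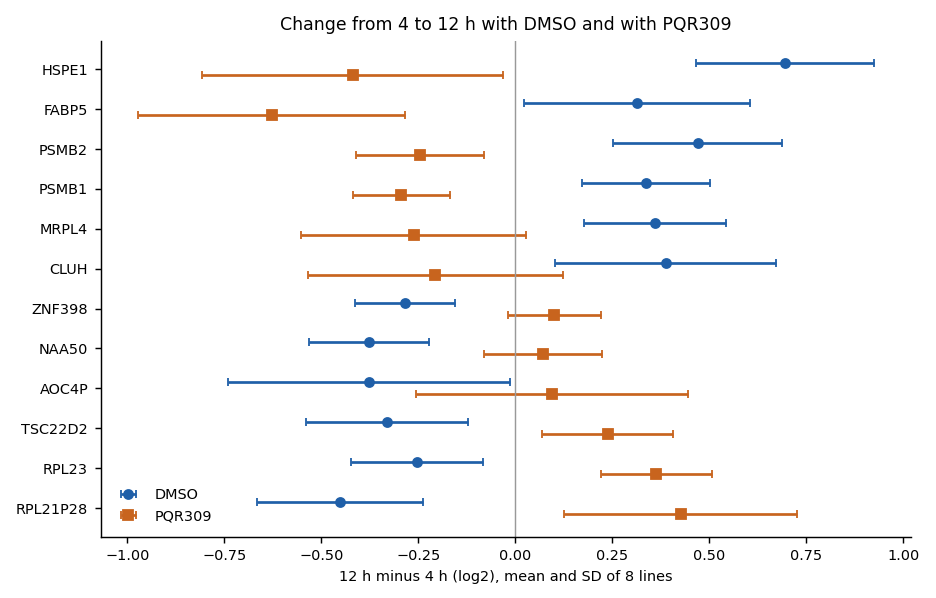
The 12 h minus 4 h difference (log2) of 12 genes with DMSO (blue circles) and PQR309 (orange squares), as mean and SD of 8 lines, for the 6 genes of smallest p in each direction. HSPE1 lies at 0.69 with DMSO and -0.42 with PQR309, and RPL21P28 at -0.45 with DMSO and 0.43 with PQR309.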

How the data were processed

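RNA was extracted with a column kit, biotin-labelled and hybridised to Illumina bead arrays, per the labels' protocols, and GenomeStudio was used, per the submitters' processing notes. The authors deposited normalized values on a log2 scale, in which the DMSO and PQR309 arrays form 1 set with array medians of 6.64. The deposited raw table holds probe intensity. For OCILY1 with DMSO at 8 h, and with PQR309 at 4 and 8 h, the deposited raw columns hold detection p-values, and the highest of the lowest detected levels on these 3 arrays, 6.73, is the detection level used here. For 5 lines the raw DMSO arrays rank probes differently from the normalized ones (rank correlation 0.816 to 0.910) and were treated as other arrays.

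Of 47231 probes 30113 carried 1 gene symbol, 8 several, and 17110 were unnamed. The brighter 50% of probes were kept and the brightest stood for each gene (12440 genes). Limma 3.58.1 in R 4.3.3 tested within-line differences (lmFit, eBayes, two-sided, Benjamini-Hochberg adjustment), after a test on simulated data. The raw arrays were background-corrected with normexp (offset 50), quantile-normalized and put on a log2 scale. Lines pair the arrays by their names in the labels. After removal of each time's mean, 12 and 4 h arrays of a line correlated at 0.77 to 0.93 and arrays of different lines at -0.38 to 0.22. The number of lines limits the precision.

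The members, the 39 gene lists and the tests were chosen with earlier results of these data known. Named genes were the 15 largest called rises and falls, 6 in each direction for the other comparisons, up to 4 of smallest p in each list, and B-cell markers. Alternatives covered the filter, probe choice, normalization, the model, and leaving out lines.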

Additional observations from a re-analysis of the deposited data

Results flagged for a closer look

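A single line stood far from the other 7 in 5 of 94 genes and 5 of 39 lists checked for their 12 h minus 4 h change with DMSO. The cutoff flags about 1 in 20 groups of unselected, normally spread values. These genes had been picked as called on the same differences, so that rate need not hold for them or for list medians. In TMD8 ISG15 was at 1.55, and the interferon list at a median of 0.64. In U2932 H3-3B was at -1.03. In OCILY1 UQCRC1 was at 0.83, CKAP2 at -1.07 and the median of the cold-response and splicing list at -0.40. In DOHH2 ACLY was at -0.033, where the other lines rose, and the CC chemokine list was at a median of -2.02. The median of the HSP90 partners was 0.64 in OCILY18, and that of ribosome biogenesis -0.26 in SUDHL10. On the other arrays of TMD8 the interferon list had a median of 0.09, and on those of DOHH2 the CC chemokine list had -1.80.

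The 12 genes named for a different change with DMSO than with PQR309 were flagged by limma's test of that difference. They had been picked by smallest p in that same test, so the flag adds no further support. Higher in DMSO were HSPE1 by 1.11, FABP5 by 0.94, PSMB2 by 0.72, PSMB1 by 0.63, MRPL4 by 0.62 and CLUH by 0.59. Lower in DMSO were RPL21P28 (-0.88), RPL23 (-0.62), TSC22D2 (-0.57), AOC4P (-0.47), NAA50 (-0.45) and ZNF398 (-0.39).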

How the results depend on the processing

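Leaving out RIVA, SUDHL2, OCILY18 and SUDHL10, an alternative chosen after seeing the data, gave 0 calls for 12 h minus 4 h, 21 for 8 h minus 4 h, 4 for the 8 h bend and 276 for DMSO minus PQR309, and it also leaves fewer lines. Those 4 lines alone gave 191, 3028, 1397 and 2650. Without the pairing by line (no replicate block) each of these comparisons had 0 calls, with 557, 689, 224 and 271 genes at an unadjusted p under 0.05 in limma. Raw intensities, which hold other arrays for 5 lines, gave 22 calls (12 up and 10 down), 3 (3 and 0), 0 and 0 (the last 3 without OCILY1, 7 lines; 803 and 1145 genes at an unadjusted p under 0.05 for the bend and for DMSO minus PQR309 in limma), and HILPDA (-0.027), COX4I1 (-0.011) and RPS10 (-0.042) changed sign there. One fit of the 3 times gave 1661 calls for 12 h minus 4 h, and the mean of a gene's probes gave 40 for the bend. The cause of these shifts was not tested. Leaving out 1 line at a time gave 339 to 902 calls for 12 h minus 4 h, 640 to 1622 for 8 h minus 4 h, 2 to 259 for the bend and 722 to 1437 for DMSO minus PQR309. It gave 0 to 0 for 12 h minus 8 h, for the line sets and for the other arrays, which had 0 calls under every alternative that could be run for them. Of 94 genes named for 12 h minus 4 h, 47 lost their call without some line, and 27 with no filter on dim probes. No fit without pairing was made for the line sets.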

Other observations

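The largest changes of each line were also listed, and with 1 array per time they carry no test. The 4 largest rises and 4 largest falls between 4 and 12 h with DMSO were taken in each line, a rule set after their values were seen. In the 5 lines with other arrays, 33 of these 40 values had the same sign there and 21 were at least 0.5 times as large. The sign was the same for 8 of 8 in DOHH2 and TMD8, 6 of 8 in RIVA and SUDHL2 and 5 of 8 in U2932. The same shares over all genes of a line were not taken, so these counts cannot be told from the general likeness of its arrays. Some of the leaders, such as HSPA1B and TSC22D3, moved the same way in all 8 lines. The counts therefore also hold changes shared by the lines.

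In DOHH2 genes raised by hypoxia were the 4 largest rises. ADM, which encodes the peptide adrenomedullin, was at 9.70 at 12 h and 7.47 at 4 h, a difference of 2.23, with the other 7 lines between -0.20 and 0.26, but of 0.91 on the other arrays of DOHH2. ANKRD37 (1.61), the mitophagy gene BNIP3 (1.5) and the hexokinase HK2 (1.35) followed, at 1.40, 0.65 and 0.80 on those arrays. The 4 largest falls were the activation marker CD69 (-2.35) and the chemokine genes CCL3L3 (-2.24), CCL3L1 (-2.15) and CCL4L1 (-2.05). CCL3L3 and CCL3L1 are near-identical copies that probes may not separate. On the other arrays these 4 were at -1.36, -2.30, -2.0 and -2.72.

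In TMD8 the rises were led by HSPA1B (1.79), followed by the interferon-induced genes OAS2 (1.68), IFI27 (1.60) and ISG15 (1.55), which were at 1.64, 0.78, 1.43 and 0.93 on its other arrays. In RIVA the largest rise was DDIT4 (1.65, and 0.34 on its other arrays) and the largest fall PTMA (-1.25, but 0.55 there). In SUDHL2 the largest rise was the kinase gene PIM2 (1.42, and 0.26 there) and the largest fall the translation factor EIF5A (-1.63, but 0.33 there), while SPP1, which encodes osteopontin, was at -1.35 and -1.79. In U2932 the largest rise was HSPA1B (0.995, and 1.37 there) and the largest fall LPIN1 (-1.28, and -0.22 there). HILPDA turned sign in U2932 (0.98, but -0.25 there), while the purine receptor P2RY12 was at -1.11 and at -1.48 there.

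For OCILY1, OCILY18 and SUDHL10, which have no other arrays here, the values with PQR309 stand beside. In OCILY1 the largest rise was YWHAE, a 14-3-3 protein (2.32 with DMSO and 0.28 with PQR309), and the largest fall the ribosomal RNA RNA18SN5 (-2.48 and -0.27). The chemokine receptor CXCR4 was at -2.37 and -1.73, and RRM2B, a ribonucleotide reductase subunit, at -1.85 and -1.98. With PQR309, 8 of 8 leaders of OCILY1 kept their sign and 3 were at least 0.5 times as large. In OCILY18 the largest rise was SLC9A4 (1.84 and 0.77) and the largest fall ZNF91 (-1.83 and -0.40), and 8 of 8 kept their sign and 5 that size with PQR309. In SUDHL10 they were HSPA1B (1.40 and 1.54) and JUND (-1.63 and -1.07), and 6 of 8 kept their sign and 3 that size. Shares over all genes of a line were not taken for these counts either.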
